A study of Drosophila melanogaster with 11 samples.

Results

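RNA of embryos whose mothers were depleted of the chromatin remodeller Domino in the germ line was compared with RNA of unfertilized eggs, to ask which zygotic genes were still switched on and which maternal RNAs were still cleared in DomKD embryos. The comparison used the 4 DomKD stage 5 embryo libraries and the 4 Ctrl unfertilized egg libraries, chosen by their labels, which are 8 of the 11 RNA-seq libraries analysed here. The other 3 libraries, of Ctrl stage 5 embryos, were the reference for what a normal embryo had reached. DomKD embryos came from mothers with the genotype label t216, in which a UAS-shRNA of the TRiP collection against dom was driven by mat-alpha-Gal4, a driver active in the female germ line. Ctrl embryos and all eggs carried the genotype label t180, and the control named in the study's methods is a TRiP line. All libraries were total RNA of whole embryos or eggs of Drosophila melanogaster, and the labels do not state whether replicates came from separate crosses, so p-values measure the spread between these libraries, which may be technical. No eggs of DomKD mothers were analysed here, so for an RNA that was low in DomKD embryos, loss after fertilization and a lower supply by the DomKD mother cannot be told apart from the eggs alone, and for one that was high in them neither can slower loss, a larger supply and new transcription.

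In the fly, the first nuclear divisions run on RNA and protein that the mother loaded into the egg. At the maternal-to-zygotic transition many of these RNAs are destroyed, partly by maternal factors that egg activation sets to work and partly by products of the zygote, and the zygotic genome is activated, first at a few early genes and then widely as the blastoderm cellularizes at stage 5. The pioneer factor Zelda (zld) opens many of the early genes. Domino is the ATPase that exchanges the histone variant H2A.Z into nucleosomes. An unfertilized egg is activated when it is laid but holds no zygote, so RNA that is absent from eggs and present in embryos marks zygotic transcription.

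Library depth was 11809453 to 15712506 counted reads in DomKD embryos, 15387133 to 17700171 in eggs and 12642275 to 16310645 in Ctrl embryos. Levels are given as TPM (the usual length-normalized abundance, counts per exon length scaled to the same sum in every library), and fold changes come from edgeR fits on the counts with trimmed-mean scaling and Benjamini-Hochberg adjustment over every gene whose mean reached 10 counts. Values are shares of a library, so fewer cells of a type and less RNA per cell cannot be told apart. Of 7423 genes tested, 3502 (47.2%) were higher in DomKD embryos than in eggs and 3075 (41.4%) were lower, while in Ctrl embryos the counts were 3526 higher (46.6%) and 2963 lower (39.2%) of 7565. When libraries were scaled on the ribosomal protein genes instead, the median of all genes moved from 0.11 to -0.54 on the log2 scale, and 1117 genes were higher and 4917 lower in DomKD embryos. With trimmed-mean scaling, changes of at least 4-fold, on which the groups below rest, were called for 660 genes upward (8.89%) and 1264 downward (17.0%). Embryo libraries of each group also differed among themselves. Over 7606 genes, the correlation of an embryo library with the mean egg was 0.656, 0.685, 0.650 and 0.702 in DomKD replicates 1 to 4 and 0.705, 0.683 and 0.664 in Ctrl replicates 2 to 4. DomKD replicate 4 and Ctrl replicate 2 were thus nearest to eggs, and the groups overlapped. These correlations share the egg libraries and are a description of how far each library had moved. Exact embryo age within stage 5 was not given per library, and its part in the differences between DomKD and Ctrl embryos was not tested.

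The targeted gene dom (chromosome 2R, 21323430 to 21341847, plus strand, in the BDGP6 assembly) was read at 9.37, 11.2, 15.4 and 8.54 TPM in DomKD embryos, 220.1, 199, 226 and 218 TPM in eggs and 318, 270.2 and 289 TPM in Ctrl embryos. Every DomKD library lay far below every other library. The log2 fold change was -4.66 ± 0.18 (SE) against Ctrl embryos and -4.17 ± 0.16 (SE) against eggs (edgeR adjusted p = 1.2e-06 and 5.6e-10). Of the 15 tested genes of the Domino and Tip60 complexes, dom was the only one called lower than in eggs, and 13 were called higher (47.2% over all genes). Relative to ribosomal protein genes that split became 1 higher and 8 lower, and the call of DMAP1, 1 of the 13, was lost with library size scaling, with no filter, with a replicate block, without DomKD replicate 1 or 3 and without egg replicate 1, 2 or 3 (edgeR adjusted p 0.058 to 0.136, against 0.048 with all libraries). In Ctrl embryos 15 of 16 tested genes of these complexes were called higher than in eggs, at a median log2 fold change of 0.52. In DomKD embryos this median was 0.53. After dom, the lowest log2 fold changes of DomKD embryos against eggs were 0.10 ± 0.06 (SE) for Ing3, which was not called, and 0.30 ± 0.13 (SE) for DMAP1. Markers of other cell types were mostly too low to test. Of 18 follicle cell markers, which would show ovarian tissue, none passed the count filter, and their summed level was 0.29 to 2.64 TPM in DomKD embryos and 0.68 to 1.996 TPM in eggs. The 10 markers of differentiated neurons summed to 24.4 to 31.1 TPM in DomKD embryos, 25.1 to 30.1 TPM in Ctrl embryos and 12.2 to 14.3 TPM in eggs. The 10 of muscle and heart summed to 0.91 to 1.81 TPM, 2.31 to 2.45 TPM and 0.35 to 0.95 TPM in that order. The 12 of cuticle, gut and blood cells summed to 27.6 to 44.1 TPM, 24.1 to 40.3 TPM and, in eggs, 128 to 163 TPM. Of these 12, 11 were under 1 TPM in each egg library, so their egg sum rested mostly on 1 gene. Of the neuron markers, 1 averaged over 5 TPM in DomKD embryos, and of 3 tested 1 was called higher and 2 lower than in eggs. Both sums lay apart between DomKD embryos and eggs, and their part in the results was not tested.

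Zygotic genes were on in DomKD embryos. Egg-absent genes were those under 1 TPM in each egg library (10755 of 17753 genes). A gene was counted as turned on when it was egg-absent, averaged over 5 TPM in DomKD embryos and was called at least 4-fold higher than in eggs, and 318 genes met this. Such genes had to differ from eggs by their choice, so their count is a description. The 10 with the largest increases had no read in any egg library. They were bard, the ELBA insulator subunits Elba1 and Elba3, dunk, which acts in cellularization, the lipid droplet transport gene halo, term, CG14014, CG10035, CG7271 and lncRNA:CR43887. Bard stood at 2407, 2003, 2204 and 1789 TPM in the 4 DomKD libraries and 1663, 1821 and 2031 TPM in the 3 Ctrl embryo libraries. Elba1 stood at 1275, 1252, 1223 and 1186 TPM and 1058, 1122 and 1036 TPM. Against a floor of 3 counts per egg library, bard was at least 9119.7-fold higher in DomKD embryos than in eggs, Elba1 at least 4707-fold and halo at least 3307-fold. In Ctrl embryos the same 10 genes averaged 569 to 2192 TPM, against 629 to 2101 TPM in DomKD embryos.

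Many of the turned-on genes had a transcript without introns. Among 314 of the 318 genes with an annotation, 35.0% had a transcript of a single exon, against 21.6% of the 12588 annotated genes with a read and 11.1% of the maternal genes that fell at least 4-fold. Their median genomic span was 2317 nt, near the 2214 nt of all genes with a read. They lay on the X chromosome in 9.87%, against 16.2% of all genes with a read, and 12.1% were non-coding.

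Most genes on lists of embryonic patterning and cellularization were read in DomKD embryos. In all, 110 genes of 12 zygotic lists were in the table, of which 98 were egg-absent. Of these 110, 68 averaged over 5 TPM in DomKD embryos and 74 in Ctrl embryos. Members named below beyond the 3 highest of each list were picked after their values were seen.

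Gap genes, the first zygotic interpreters of the maternal gradients, were all on. All 10 gap and head gap genes averaged over 5 TPM in both embryo groups and were called higher than in eggs. The terminal gap gene tll (chromosome 3R, 30852315 to 30854400, plus strand) was read at 171, 165, 166 and 132 TPM in DomKD embryos and 94.5, 109.8 and 124 TPM in Ctrl embryos, with 0 in every egg. The lowest DomKD library lay above the highest Ctrl library, and the log2 fold change between embryo groups was 0.59 ± 0.13 (SE) (edgeR adjusted p = 0.011). The gap gene hb, which is also supplied by the mother, was at 298, 334, 321 and 294 TPM in DomKD embryos, 232, 236 and 239 TPM in Ctrl embryos and, in eggs, 123, 112, 132 and 131 TPM. The 3 groups did not overlap, with DomKD embryos highest (edgeR log2 fold change 0.46 ± 0.07 (SE) against Ctrl embryos, adjusted p = 0.0017). Giant (gt) averaged 142 ± 8.88 TPM (SD, n = 4) in DomKD and 127 ± 9.49 TPM (SD, n = 3) in Ctrl embryos, and it was not called between them. Against Ctrl embryos 5 of the 10 genes were called higher and 1, the kni relative knrl, lower (8.03, 2.61, 7.69 and 4.52 TPM against 12.8, 9.83 and 18.1 TPM). Across all 7727 genes tested between the embryo groups, 10.6% were called higher and 15.5% lower in DomKD embryos.

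Pair-rule genes, which divide the blastoderm into stripes, followed the Ctrl level. All 9 averaged over 5 TPM in DomKD embryos, and none of the 9 was called higher or lower than in Ctrl embryos. The hairy gene (hry) was at 83.1, 58.04, 83.1 and 54.3 TPM in DomKD embryos against 51.9, 49.6 and 74.03 TPM in Ctrl embryos. The values of run were 52.2, 47.8, 55.03 and 57.1 TPM against 57.6, 47.3 and 62.7 TPM and those of odd 77.8, 60.9, 74.5 and 53.99 TPM against 57.5, 60.9 and 83.8 TPM. In each of these the embryo groups overlapped. The log2 fold change between embryo groups was 0.31 ± 0.20 (SE) for hry, -0.02 ± 0.10 (SE) for run and 0.05 ± 0.17 (SE) for odd.

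Segment polarity and homeotic genes, which act after the stripes are set, were mostly at low levels in both embryo groups. Of the 13 tested, 8 were called lower in DomKD embryos. Over all genes tested between the embryo groups 15.5% were called lower and 10.6% higher, and of 1054 egg-absent genes 273 lower and 116 higher. Of 9 segment polarity genes, ptc, the Hedgehog receptor, and wg, a Wnt ligand, exceeded 5 TPM in DomKD embryos, as in Ctrl embryos. The levels of ptc were 31.8, 28.2, 41.6 and 25.9 TPM against 33.3, 33.03 and 51.3 TPM and overlapped. The levels of wg were 10.96, 7.77, 7.61 and 9.25 TPM against 18.2, 12.2 and 14.9 TPM without overlap (edgeR log2 fold change -0.70 ± 0.17 (SE), adjusted p = 0.014). The selector gene en averaged 2.32 TPM in DomKD and 2.65 TPM in Ctrl embryos. Against Ctrl embryos, 3 of 7 tested genes of this list were called lower (wg, gsb and mid) and 1 higher (inv, 0.877 TPM against 0.386 TPM). None of the 8 homeotic genes averaged over 5 TPM in either group. Of the 6 tested, 5 were called lower in DomKD embryos, with a list median log2 fold change of -1.52 beside 0.00 over all genes tested. Antp was at 1.78, 0.637, 1.69 and 1.44 TPM in DomKD embryos and 5.83, 2.87 and 4.76 TPM in Ctrl embryos, and Dfd at 2.19, 1.2, 1.95 and 1.84 TPM against 5.96, 3.41 and 5.59 TPM. Neither gene overlapped between the groups. The level of abd-A did overlap, at 2.3, 0.483, 2.2 and 1.18 TPM against 1.83, 0.865 and 2.63 TPM.

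Along the dorsoventral axis twi, sna and zen were on. Against Ctrl embryos, 4 of 10 ventral, 3 of 14 neuroectoderm and 7 of 16 dorsal ectoderm genes tested were called lower, while 5 dorsal ectoderm genes were called higher. Over all genes tested between the embryo groups 15.5% were called lower and 10.6% higher. Of 1054 egg-absent genes tested, 273 were called lower and 116 higher. In the ventral list the mesoderm determinants twi and sna stood at 95.2, 73.9, 89.9 and 59.9 TPM and 53.5, 50.7, 58.4 and 41.9 TPM in DomKD embryos, against 57.7, 65.1 and 85.2 TPM and 34.02, 35.1 and 46.9 TPM in Ctrl embryos. Neither was called between the groups. The exons of twi overlap other annotated genes on both strands. The mesodermal gene tin averaged 0.672 TPM in DomKD and 2.8 TPM in Ctrl embryos, the midline regulator sim 0.335 and 1.65 TPM, the FGF receptor htl 7.92 and 14.9 TPM and its adaptor stumps 4.35 and 13.7 TPM. These 4 of 10 were the genes called lower, and none was called higher. The egg already held 4 genes of the list. Of these fog, a ligand of gastrulation, was called higher in DomKD embryos than in eggs (edgeR log2 fold change 0.59 ± 0.07 (SE), adjusted p = 6.9e-06), at 36.2 ± 4.31 TPM (SD, n = 4) beside 36.3 ± 3.61 TPM (SD, n = 3) in Ctrl embryos, and with ribosomal protein scaling its value became -0.05. The other 3, the adhesion gene T48, the fog receptor mthl1 and the muscle regulator Mef2, were not higher than in eggs. T48 was at 15.7, 14.3, 15.1 and 20.4 TPM in DomKD embryos, 26.7, 17.99 and 22.7 TPM in Ctrl embryos and, in eggs, 64.2, 63.8, 60.3 and 66.5 TPM, mthl1 averaged 35.1, 40.4 and 42.8 TPM and Mef2 6.64, 7.88 and 19.8 TPM. T48 and Mef2 were therefore also below eggs in normal embryos.

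In the neuroectoderm list of 14 genes, all 13 tested were called higher than in eggs. The Sox gene D was at 358, 329, 353 and 249.8 TPM in DomKD embryos and 174, 237 and 279 TPM in Ctrl embryos, with at most 1 read in any egg. The proneural genes sc, l(1)sc and ac averaged 116 ± 24.9 TPM, 65.3 ± 17.5 TPM and 56.1 ± 12.01 TPM (SD, n = 4), against 96.3 ± 15.5 TPM, 59.6 ± 9.75 TPM and 44.2 ± 9.3 TPM (SD, n = 3). None of these 4 was called between embryo groups. The intermediate column gene ind was at 2.001, 1.79, 1.19 and 2.04 TPM in DomKD embryos against 8.89, 3.41 and 4.76 TPM in Ctrl embryos, without overlap (edgeR log2 fold change -1.61 ± 0.34 (SE), adjusted p = 0.0078). It was too low to be tested against eggs, where it had no read. The FGF ligand ths (3.36 against 7.69 TPM) and the neuronal RNA-binding gene elav (1.79 against 6.9 TPM) were the other genes of the list called lower.

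The dorsal ectoderm list of 17 genes was divided, with 5 genes called higher and 7 called lower of 16 tested (10.6% and 15.5% over all genes tested). The homeobox gene zen (chromosome 3R, 6752864 to 6754194, minus strand), which specifies the amnioserosa, was at 481, 505, 446 and 396 TPM in DomKD embryos, 255, 293 and 309 TPM in Ctrl embryos and, in eggs, 0.8275, 0.372, 0.457 and 0.497 TPM. No library of one group reached another (edgeR log2 fold change 0.73 ± 0.12 (SE) between embryo groups, adjusted p = 0.002). The BMP ligands scw and dpp, the secreted BMP regulator tsg and the protease tld were the other genes called higher. Scw averaged 376 ± 20.7 TPM (SD, n = 4) against 317 ± 39.9 TPM (SD, n = 3), and tsg 231 ± 10.1 TPM against 175 ± 9.81 TPM. The 7 called lower included, picked after their values were seen, the GATA factor pnr at 1.1 against 4.12 TPM, its partner ush at 0.965 against 2.76 TPM and tup at 4.78 against 10.5 TPM. The third BMP ligand gbb (chromosome 2R, 23851562 to 23853247, plus strand) had the lowest value of the list against Ctrl embryos. It was at 6.06, 2.02, 4.95 and 5.03 TPM in DomKD embryos and 31.6, 27.5 and 37.4 TPM in Ctrl embryos, and at 0.311, 0.419, 0.0688 and 0.374 TPM in eggs. DomKD embryos lay between eggs and Ctrl embryos with no overlap, at a log2 fold change of 4.00 ± 0.47 (SE) against eggs and -2.79 ± 0.28 (SE) against Ctrl embryos (edgeR adjusted p = 8.2e-06 and 0.00027).

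Of 7 cellularization genes 6 exceeded 5 TPM in DomKD embryos, and of 9 genes for counting X chromosomes and dosage compensation 8 did, as in Ctrl embryos. The other cellularization gene, Sry-alpha, had 0 counts in all 11 libraries. The membrane gene slam rose from 77.7, 71.6, 81.5 and 86.1 TPM in eggs to 1798, 1856, 2069.5 and 1415 TPM in DomKD embryos, beside 1068, 1321 and 1592 TPM in Ctrl embryos. Halo was at 2121, 1953, 2019.8 and 1508 TPM against 998, 1355 and 1562 TPM, and Z600, an inhibitor of mitosis whose exons overlap those of gdl, at 1643, 1302, 1680.1 and 1025 TPM against 814, 1203 and 1509 TPM. The embryo groups overlapped in all 3. Of the 6 tested cellularization genes, halo and bnk were called higher than in Ctrl embryos (10.6% over all genes tested). The X-counting gene sisA was at 137, 115.4, 134 and 109.9 TPM in DomKD embryos against 96.2, 134 and 134 TPM in Ctrl embryos. The dosage compensation RNA lncRNA:roX1 averaged 314 ± 46.5 TPM against 285 ± 46.05 TPM, while its partner lncRNA:roX2, at 0.756 against 2.25 TPM, was called lower. Of the neurogenic Bearded family, 6 of 8 genes in the table were over 5 TPM in both groups. Tom was at 401, 235, 340.4 and 274 TPM against 467, 377 and 529.7 TPM, and E(spl)m4-BFM, at 109.8, 112, 106 and 109.97 TPM against 75.7, 64.6 and 63.4 TPM, was the only one called different. BobA has near-identical neighbours, so its level of 139 TPM is uncertain. The endoderm regulators fkh and srp averaged 11.5 ± 3.94 TPM and 8.68 ± 1.84 TPM, against 8.63 ± 2.1 TPM and 10.9 ± 2.29 TPM, and the later GATAe had at most 0.086 TPM in any DomKD library. The 8 precursors of the miR-309 cluster, whose miRNAs clear maternal RNA, had 0 counts in all 11 libraries, including Ctrl embryos, and give no information here.

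**Figure D1:**
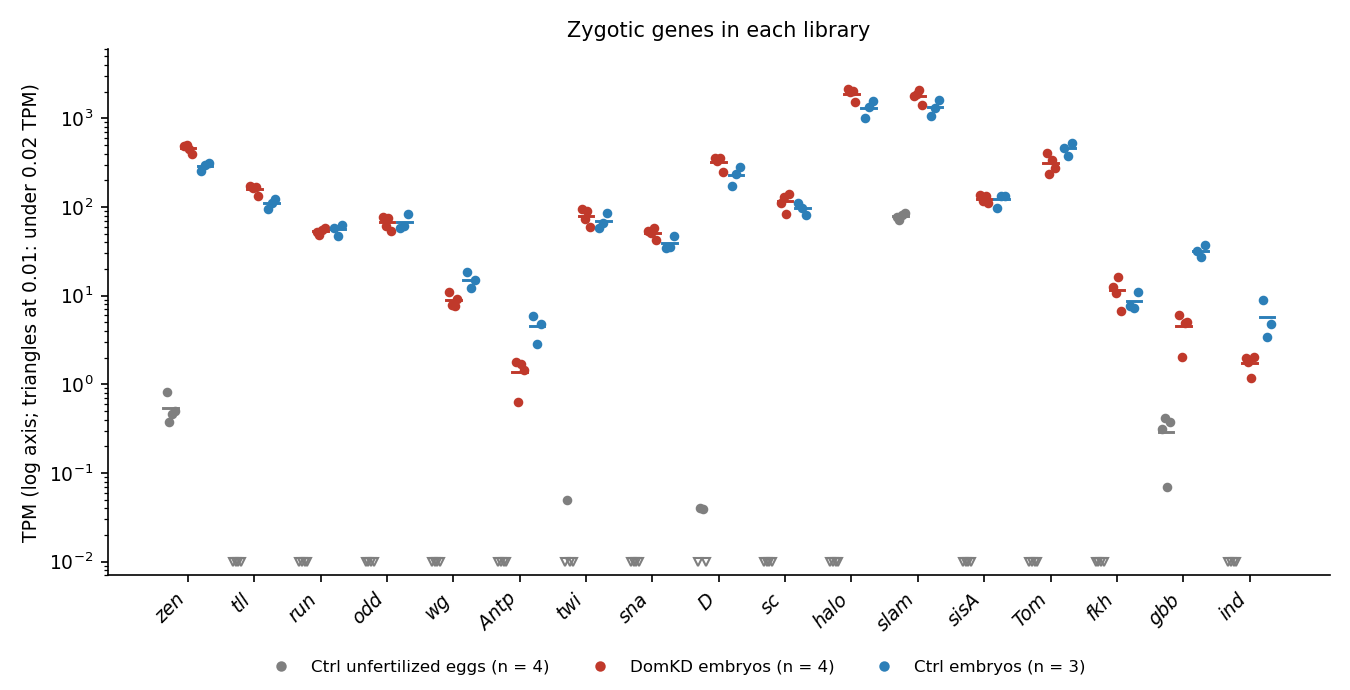
Levels of 17 zygotic genes in TPM on a log axis, with one point per library and a bar for the group mean, for eggs (n = 4), DomKD embryos (n = 4) and Ctrl embryos (n = 3); open triangles stand for values under 0.02 TPM. DomKD and Ctrl embryos lie close together for run, odd, twi and sisA, DomKD embryos lie above for zen and tll, and below for wg, Antp, gbb and ind.

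Over all lists, the 24 genes lower in DomKD than in Ctrl embryos were of low level, with a median of 4.74 TPM in Ctrl embryos and a highest value of 32.9 TPM (Ance). The 16 genes called higher had a median of 122 TPM in Ctrl embryos, and the 53 tested genes called neither way a median of 45.04 TPM. None of the 24, 13 of the 16 and 32 of the 53 exceeded 40 TPM in Ctrl embryos. Their median spans were 12293 nt for the genes called lower, 2568 nt for those called higher and 3668 nt for the others.

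To describe all zygotic genes and not only listed ones, zygote-only genes were taken as egg-absent genes whose mean over the Ctrl and DomKD group means exceeded 5 TPM, a rule that treats both embryo groups alike. It gave 379 genes. Of these, 331 exceeded 5 TPM in both embryo groups, 41 in Ctrl embryos only and 7 in DomKD embryos only. None of the 379 was under 1 TPM in each of the 4 DomKD libraries. DomKD and Ctrl means differed by less than 2-fold for 321 genes (84.7%), 53 were at least 2-fold lower in DomKD embryos and 5 at least 2-fold higher. Zygote-only RNA made up 4.99%, 4.34%, 4.68% and 3.85% of TPM in DomKD replicates 1 to 4 and 3.54%, 3.90% and 4.45% in Ctrl replicates 2 to 4, against at most 0.0021% in any egg. The embryo groups overlapped in this share. The median gene was at 17.4 TPM in DomKD and 19.1 TPM in Ctrl embryos.

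Between the embryo groups, 352 of the 379 genes could be tested, with a median log2 fold change of 0.10 beside 0.00 over all genes. Of these, 66 were called higher and 52 lower in DomKD embryos, beside 10.6% higher and 15.5% lower over all 7727 genes tested. Within this set the number lower was thus near the share over all genes. The rule leaves out genes of lower level. Over all egg-absent genes tested between the embryo groups, 116 of 1054 were called higher and 273 lower, at a median log2 fold change of -0.16. Of all 10755 egg-absent genes, 352 averaged over 5 TPM in DomKD embryos and 410 in Ctrl embryos. The counts of the zygote-only set rested on few libraries. Without Ctrl replicate 2 the number higher was 40, and without Ctrl replicate 4 or DomKD replicate 2 the number lower was 23 or 33. Scaling on ribosomal protein genes gave 37 higher and 73 lower. The 27 genes that could not be tested were mostly short non-coding RNAs (9 tRNA, 7 snoRNA and 7 other ncRNA genes). Of the 41 genes over 5 TPM in Ctrl embryos only, 30 were tested and 22 called lower.

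**Figure D2:**
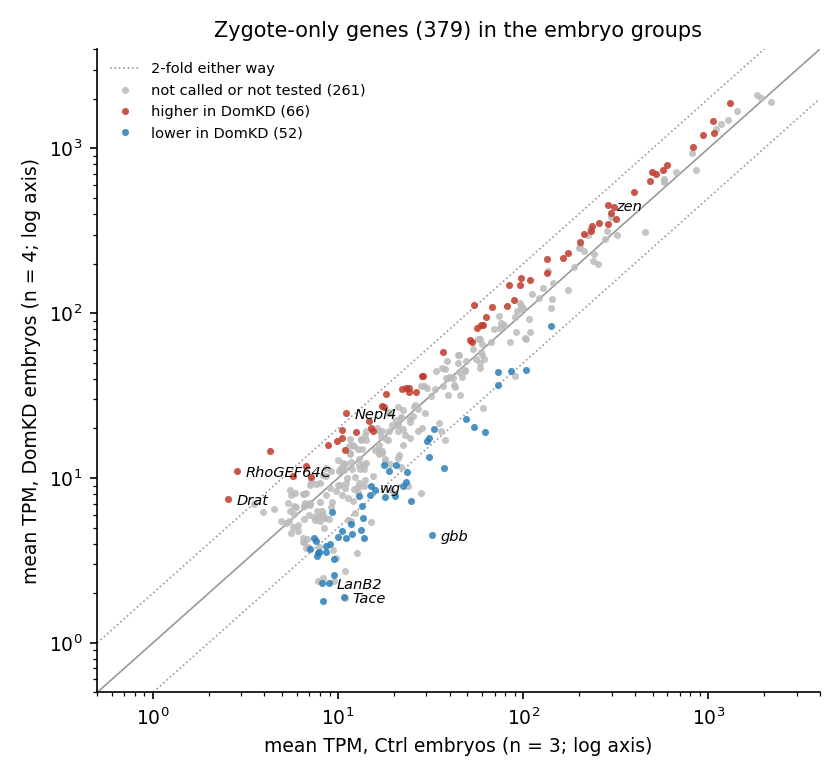
Mean TPM of the 379 zygote-only genes in DomKD embryos (n = 4) against Ctrl embryos (n = 3), both on log axes, with equality as a solid line and 2-fold differences dotted. Of the genes, 66 were called higher (red) and 52 lower (blue) in DomKD embryos, and the genes called lower lie mostly at low levels.

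The genes with the lowest zygote-only values against Ctrl embryos were, after gbb, the metalloprotease gene Tace, CG3253, the laminin subunit LanB2 and the integrin subunit mew. Tace was at 2.32, 1.23, 2.85 and 1.23 TPM in DomKD embryos and 9.8, 8.95 and 13.5 TPM in Ctrl embryos, and LanB2 at 2.46, 1.47, 3.25 and 2.06 TPM against 9.53, 6.6 and 10.5 TPM. For CG3253 the means were 1.79 ± 0.394 TPM and 8.25 ± 1.36 TPM, and for mew, whose exons overlap CG15742, 2.56 ± 0.822 TPM and 9.46 ± 1.86 TPM. Groups did not overlap in any of the 4, and log2 fold changes ran from -2.45 (Tace) to -1.83 (mew), with edgeR adjusted p-values of at most 0.00098. All 4, like gbb, averaged under 5 TPM in DomKD embryos and entered the set through their Ctrl values. Each of these 4 genes was nevertheless higher in DomKD embryos than in eggs, where the highest value was 0.0756 TPM (mew).

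The highest values against Ctrl embryos belonged to the exchange factor RhoGEF64C, Drat, the neprilysin-like Nepl4, CG15480 and lncRNA:CR45266. RhoGEF64C was at 9.33, 14.4, 9.89 and 10.4 TPM in DomKD embryos, 2.8, 3.11 and 2.65 TPM in Ctrl embryos and, in eggs, 0.6645, 0.694, 0.572 and 0.4835 TPM. It was under 5 TPM in Ctrl embryos and entered the set through its DomKD value. CG15480 stood at 118, 119, 113 and 97.9 TPM against 46.6, 51.5 and 63.8 TPM. In all 5 the embryo groups were apart, at log2 fold changes from 0.95 (lncRNA:CR45266) to 2.002 (RhoGEF64C) and edgeR adjusted p-values of at most 0.013 (Nepl4). The meiotic gene corolla, which encodes a protein of the synaptonemal complex, was just above the egg-absent limit. It was at 49.4, 38.2, 36.2 and 40.6 TPM in DomKD embryos, 7.1, 6.52 and 8.57 TPM in Ctrl embryos and, in eggs, 0.925, 0.831, 1.11 and 1.33 TPM (edgeR log2 fold change 2.54 ± 0.16 (SE) between embryo groups, adjusted p = 3.3e-05).

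Gene span went along with the difference between embryo groups. The 347 tested zygote-only genes with an annotation were put in 4 groups of near equal size by genomic span. The median log2 fold change of DomKD against Ctrl embryos was 0.23 in the shortest group (72 to 880 nt), 0.22 in the next (887 to 2346 nt), 0.08 in the third (2347 to 6920 nt) and -0.20 in the longest (7172 to 132010 nt). Calls lower in DomKD embryos numbered 8, 8, 12 and 23 in that order, and calls higher 20, 26, 14 and 5. Single libraries varied. In the longest group the median log2 ratio to the Ctrl mean was -0.21, -0.44, 0.08 and -0.58 in DomKD replicates 1 to 4 and -0.04, -0.23 and 0.28 in Ctrl replicates 2 to 4, so the groups overlapped. Within a library, the shortest group stood above the longest by 0.60, 0.63, 0.15 and 0.54 in DomKD replicates 1 to 4. In Ctrl replicates 2 to 4 this difference was -0.05, 0.18 and -0.10. DomKD replicate 3 lay within these values and the other 3 above them. The Ctrl libraries set the mean to which all ratios were taken, which draws their own values towards it. Their range is therefore not an independent spread to judge the DomKD libraries by. The level of the genes moved with span, from a median of 28.9 TPM in the shortest group to 18.6 TPM in the longest in Ctrl embryos. Among genes averaging under 30 TPM over the embryo groups the medians were 0.17, -0.02, -0.03 and -0.32. The span groups were formed after values had been seen, and the part of embryo age in the pattern was not tested.

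**Figure D3:**
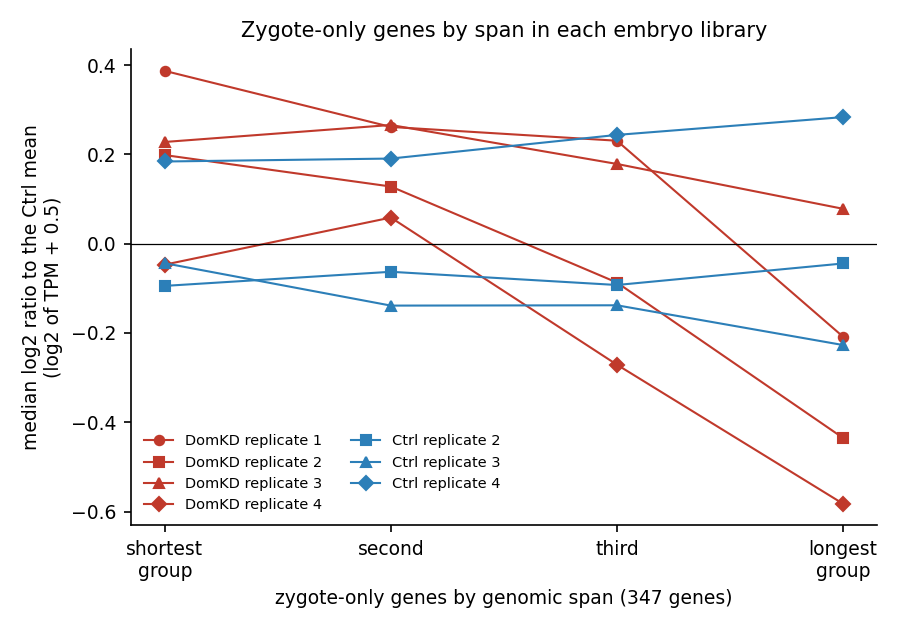
Median log2 ratio of zygote-only genes to the Ctrl embryo mean, from log2 of TPM plus 0.5, in 4 groups of genes by genomic span, with one line per embryo library (4 DomKD, 3 Ctrl). In the longest group DomKD replicates 2 and 4 are the lowest libraries, at -0.44 and -0.58, and DomKD replicate 3 is at 0.08.

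The study sorted genes by promoter into Zelda-dependent genes and, among the others, genes with and without H2A.Z, and 1999 genes of that table were held here, so shares are of a partial list. The study took Zelda dependence from earlier work and H2A.Z from its own embryos. Of 94 egg-absent Zelda-dependent genes, 72 exceeded 5 TPM in DomKD embryos and 74 in Ctrl embryos. Of 216 egg-absent genes without H2A.Z the numbers were 35 and 49, and of 71 with H2A.Z 2 and 4. Among the zygote-only members, 16 of 72 Zelda-dependent genes were called higher and 7 lower in DomKD than in Ctrl embryos, at a median log2 fold change of 0.21. For 44 zygote-only genes without H2A.Z the calls were 2 higher and 10 lower, at a median of -0.08, and for 5 with H2A.Z 0 higher and 3 lower, at a median of -1.09. Over all egg-absent genes tested between the embryo groups, 17 of 80 Zelda-dependent genes were called higher and 10 lower (median 0.20), 6 of 122 without H2A.Z higher and 42 lower (median -0.55) and 1 of 24 with H2A.Z higher and 14 lower (median -1.01), beside 116 of 1054 higher and 273 lower over all egg-absent genes (median -0.16). The classes were not tested against each other.

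Many maternal RNAs were lower in DomKD embryos than in eggs. Maternal genes were those that exceeded 5 TPM in 3 or all 4 of the egg samples (6336 genes, of which 6317 were tested). Of the tested genes, 1215 (19.2%) were called at least 4-fold lower in DomKD embryos than in eggs and 344 were over 16-fold lower. A further 716 were 2- to 4-fold lower, 4201 (66.5%) were within 2-fold of eggs, 162 were 2- to 4-fold higher and 23 at least 4-fold higher. In Ctrl embryos, against the same eggs, 1085 of 6324 maternal genes (17.2%) were at least 4-fold lower, 210 over 16-fold lower and 4296 (67.9%) within 2-fold. With ribosomal protein scaling, 1641 maternal genes were called at least 4-fold lower in DomKD embryos than in eggs, against 1215 in the main fit. The 1215 included dom, the target of the knockdown.

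**Figure D4:**
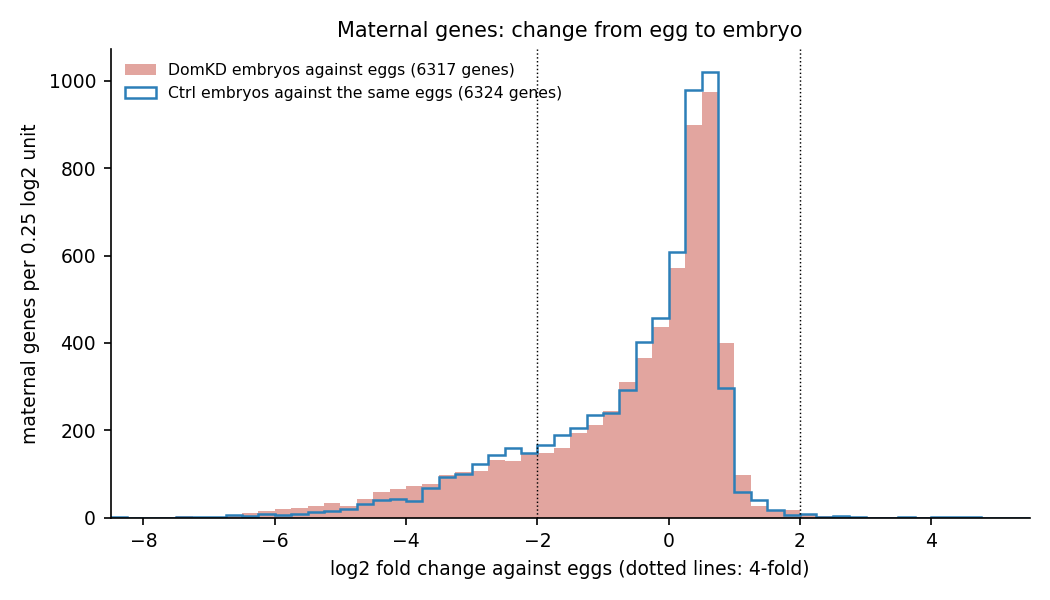
Number of maternal genes per 0.25 unit of log2 fold change against eggs, for DomKD embryos (filled, 6317 genes) and for Ctrl embryos against the same eggs (outline, 6324 genes), with 4-fold marked by dotted lines. Both distributions peak just above 0 with a long arm of RNAs lower than in eggs to the left. The DomKD arm reaches further, with 344 genes over 16-fold lower against 210.

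RNAs of egg activation and meiosis, which are no longer needed after fertilization, fell in part. Of 24 tested, 13 were called lower than in eggs, 10 of them at least 4-fold, and 8 higher, or 18 and 1 with ribosomal protein scaling. Over all genes tested, 41.4% were lower, 17.0% at least 4-fold lower and 47.2% higher. The activator of the meiotic anaphase-promoting complex cort (chromosome 2L, 6674682 to 6676635, minus strand) fell from 109.8, 95.1, 109 and 105 TPM in eggs to 1.91, 1.75, 1.21 and 1.74 TPM in DomKD embryos, and was at 1.87, 1.39 and 1.94 TPM in Ctrl embryos. The embryo groups overlapped fully (edgeR log2 fold change 0.00 ± 0.25 (SE)). The meiotic kinase gene Mos was at 259, 251, 258 and 247 TPM in eggs, 4.15, 3.67, 4.24 and 6.004 TPM in DomKD embryos and 8.67, 5.64 and 6.52 TPM in Ctrl embryos. The maternal tubulin alphaTub67C was at 888 ± 24.7 TPM in eggs, 22.5 ± 3.79 TPM in DomKD embryos and 34.1 ± 4.31 TPM in Ctrl embryos, with DomKD embryos below Ctrl embryos in every library (edgeR log2 fold change -0.54 ± 0.13 (SE), adjusted p = 0.016).

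Axis and germ plasm RNAs gave both directions. Beside 41.4% lower, 17.0% at least 4-fold lower and 47.2% higher over all genes tested, of 20 axis genes 11 were called lower than in eggs, 5 of them at least 4-fold, and 9 higher, or 13 and 0 with ribosomal protein scaling. The bcd localization factor exu (chromosome 2R, 20667427 to 20671083, minus strand) went from 1080.4, 986, 1126 and 1090.00 TPM in eggs to 13.1, 16.9, 12.9 and 19.1 TPM in DomKD embryos and 29.5, 24.7 and 24.6 TPM in Ctrl embryos. It was lower in DomKD than in Ctrl embryos, without overlap (edgeR log2 fold change -0.70 ± 0.13 (SE), adjusted p = 0.0046). The torso ligand trk averaged 1.92 ± 0.277 TPM and the dorsal morphogen dl 4.39 ± 0.665 TPM in DomKD embryos, from 22.04 ± 1.99 TPM and 39.7 ± 1.91 TPM in eggs. Of 10 germ plasm genes, 7 were called lower, 5 at least 4-fold, and 2 higher, or 8 and 0 with ribosomal protein scaling. The posterior determinant nanos, of which a localized share is protected in the germ plasm, was at 151, 149, 120.5 and 189.6 TPM in DomKD embryos against 1247, 1177, 1232 and 1268 TPM in eggs and 179, 126 and 143 TPM in Ctrl embryos. Its embryo groups overlapped. The log2 fold change from eggs was -3.28 for the scaffold gene tud and -3.22 for the helicase gene vas, which shares exons with solo. Between the embryo groups tud was called lower (14.2 against 22.2 TPM) and vas higher (27.1 against 19.8 TPM).

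Factors that act on maternal RNA were at shares near those of all genes at the 4-fold limit. Of 18 genes of mRNA repression and decay, 10 were called lower, 3 at least 4-fold, and 4 higher, or 16 and 0 with ribosomal protein scaling. Without DomKD replicate 1 the number higher was 7. Over all genes tested, 41.4% were lower, 17.0% at least 4-fold lower and 47.2% higher. The translational repressor bru1 averaged 461 ± 17.2 TPM in eggs and 34.4 ± 8.32 TPM in DomKD embryos, and the polyadenylation factor orb 86.9 ± 4.34 TPM and 9.42 ± 2.06 TPM. Neither was called between embryo groups.

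Most replication genes fell, whereas cell cycle and mitochondrial ribosomal protein genes gave counts near the shares over all genes (41.4% lower, 17.0% at least 4-fold lower). Of 25 tested genes of the replication machinery, 20 were called lower than in eggs, 11 at least 4-fold, with a list median log2 fold change of -1.54 beside 0.11 over all genes. The polymerase delta subunit PolD1 was at 4.19, 2.82, 3.54 and 3.01 TPM in DomKD embryos against 123, 112, 132 and 136 TPM in eggs. The origin recognition subunit Orc2 was at 3.16, 3.91, 2.26 and 2.23 TPM against 94.6, 91.7, 99.5 and 105 TPM, with Ctrl embryos at 9.92, 5.97 and 7.83 TPM. Orc2 was lower than in Ctrl embryos in every DomKD library (edgeR log2 fold change -1.37 ± 0.24 (SE), adjusted p = 0.0031), and PolD1 was not called between them. Of 22 cell cycle genes 10 were called lower, 3 of them at least 4-fold, and 10 higher, or 17 and 1 with ribosomal protein scaling. The checkpoint kinase gene mei-41 averaged 3.57 ± 0.716 TPM, the cyclin-dependent kinase inhibitor dap 20.3 ± 3.66 TPM and the inhibitory kinase Myt1 12.2 ± 2.96 TPM in DomKD embryos, from 37.6 ± 3.59 TPM, 213 ± 10.4 TPM and 81.5 ± 2.7 TPM in eggs.

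Of 71 tested mitochondrial ribosomal protein genes, 32 were called lower than in eggs, 11 of them at least 4-fold, and 24 higher, and with ribosomal protein scaling 68 and 0. The mRpL38 RNA was the lowest of them, at 1.07, 1.53, 1.19 and 1.23 TPM in DomKD embryos, 113, 103, 125 and 118 TPM in eggs and 3.18, 3.2 and 3.83 TPM in Ctrl embryos (edgeR log2 fold change -6.38 ± 0.11 (SE) against eggs and -1.36 ± 0.23 (SE) against Ctrl embryos, adjusted p = 1.2e-12 and 0.003). The RNAs of mRpL46 and mRpL47 averaged 5.62 and 5.19 TPM in DomKD and 12.1 and 15.7 TPM in Ctrl embryos. Proteasome genes were near the shares over all genes tested (41.4% lower, 17.0% at least 4-fold lower and 47.2% higher). Of 31 tested, 15 were called lower, 5 of them at least 4-fold, and 15 higher, or 26 and 0 with ribosomal protein scaling. The lid subunit Rpn11 was at 34.1, 37.3, 27.9 and 38.9 TPM in DomKD embryos against 476, 467, 479 and 469.99 TPM in eggs and 36.03, 30.01 and 36.8 TPM in Ctrl embryos, and the log2 fold changes from eggs of Rpn8 and Rpn7 were -2.79 and -2.66.

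The strongest falls in the table were led by CG14131, which went from 208, 175, 234 and 159.6 TPM in eggs to 0.0593, 0.0995, 0.198 and 0.0567 TPM in DomKD embryos. Ctrl embryos varied, at 1.76, 3.19 and 0.182 TPM. Among the next were CG34039, the cytochrome P450 gene Cyp6a19, CG3652, CG31075, CG7322, CG15047, CG1628 and CG4476, with log2 fold changes between -7.59 (CG34039) and -7.03 (CG4476). Cyp6a19 was at 852 ± 42.8 TPM in eggs, 4.14 ± 2.18 TPM in DomKD embryos and 2.63 ± 1.02 TPM in Ctrl embryos. CG3652 was at 93.9 ± 9.39 TPM in eggs and, without overlap, at 0.866, 0.291, 0.578 and 0.331 TPM in DomKD and 5.56, 3.55 and 3.89 TPM in Ctrl embryos (edgeR log2 fold change -2.99 ± 0.38 (SE), adjusted p = 0.00069).

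Other maternal RNAs were at or above their level in eggs. Cytoplasmic ribosomal protein genes took 16.7 to 17.7% of TPM in eggs, 24.5 to 25.6% in DomKD embryos and 21.9 to 23.4% in Ctrl embryos. All 81 tested were called higher than in eggs, at a median log2 fold change of 0.64, and relative to their own sum 19 were higher and 22 lower. RpL36A and RpL38 lost the call with library size scaling, with no filter and without egg replicate 3 or 4. RpS5a averaged 1215 ± 75.4 TPM in DomKD embryos, 888 ± 2.87 TPM in Ctrl embryos and, in eggs, 614 ± 20.8 TPM, and RpL22 1369.9 ± 46.2 TPM, 1140.5 ± 133 TPM and 708 ± 39.6 TPM. Of the 12 genes that supply chromatin, 7 were called higher than in eggs and 5 lower, or 3 and 7 with ribosomal protein scaling. Over all genes tested, 47.2% were higher and 41.4% lower. The lipid droplet histone anchor Jabba was the 1 that fell over 4-fold, to 98.7, 103, 71.6 and 128 TPM from 1045, 1014, 1054 and 1069 TPM, while the histone RNA-binding gene Slbp averaged 133 TPM against 269 TPM. The RNA of zld was at 82.6, 134, 172 and 109 TPM in DomKD embryos, 114, 101 and 124 TPM in Ctrl embryos and, in eggs, 56.7, 43.5, 32.97 and 40.03 TPM, and was not called between the embryo groups (edgeR log2 fold change 0.19 ± 0.20 (SE), adjusted p = 0.5). Maternal genes at least 4-fold above eggs were few (23 of 6317). They included, named after their values were seen, the protease inhibitor Cys (7.66 TPM in eggs and 856 TPM in DomKD embryos), the adhesion gene Nrt (36.04 and 882 TPM), the mitophagy gene BNIP3 (12.2 and 275 TPM) and Septin5 (28.2 and 413 TPM). In Ctrl embryos these 4 stood at 757, 821, 242 and 352 TPM. The mitotic brake trbl was among them too, at 408, 355, 374 and 294 TPM in DomKD embryos, 262, 308 and 344 TPM in Ctrl embryos and, in eggs, 59.3, 51.9, 66.7 and 65.1 TPM.

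**Figure D5:**
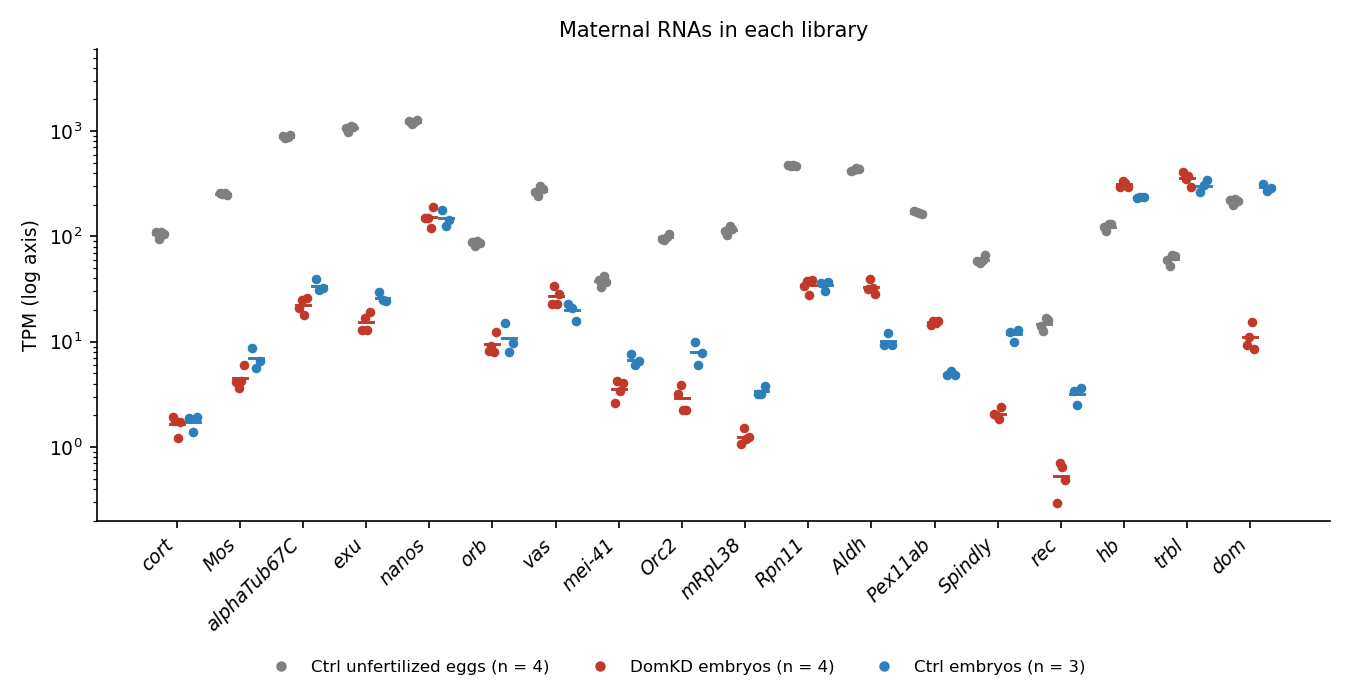
Levels of 18 maternally supplied RNAs in TPM on a log axis, with one point per library and a bar for the group mean, for eggs (n = 4), DomKD embryos (n = 4) and Ctrl embryos (n = 3). From cort to rec the embryo values lie below the eggs. Among these, DomKD embryos lie below Ctrl embryos for alphaTub67C, exu, mei-41, Orc2, mRpL38, Spindly and rec and above them for vas, Aldh and Pex11ab. In contrast, hb and trbl rose, and dom was low in DomKD embryos only.

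For the comparison of clearance between embryo groups, cleared maternal genes were taken as maternal genes whose mean of the DomKD and Ctrl log2 ratios to eggs was at most -2, which again treats both groups alike. It gave 1214 genes. Their RNA made up 16.9 to 17.7% of TPM in eggs. In DomKD replicates 1 to 4 it made up 1.64%, 1.80%, 1.53% and 2.07%, and in Ctrl replicates 2 to 4 2.51%, 2.03% and 2.18%, so the groups met only at DomKD replicate 4 and Ctrl replicate 3. The median gene went from 78.5 TPM in eggs to 7.02 TPM in DomKD and 9.88 TPM in Ctrl embryos. DomKD and Ctrl means were within 2-fold of each other for 946 genes (77.9%), while 252 were at least 2-fold lower in DomKD embryos and 16 at least 2-fold higher. Of 1173 tested between the embryo groups, 409 were called lower and 67 higher in DomKD embryos (15.5% and 10.6% over all genes tested). Their median log2 fold change was -0.29 beside 0.00 over all genes. The number higher was 34 without Ctrl replicate 3, 27 without Ctrl replicate 4, 35 without DomKD replicate 2 and 42 without DomKD replicate 4. Relative to ribosomal protein genes 18 were higher and 476 lower.

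The genes that were lowest against Ctrl embryos were snRNA:U2:34ABa, CG18766, the meiotic recombination gene rec, the dynein adaptor Spindly and CG31886. The spliceosomal RNA snRNA:U2:34ABa was at 60.2, 38.7, 55.7 and 30.7 TPM in DomKD embryos, 2280.1, 2972 and 3159.7 TPM in Ctrl embryos and, in eggs, 2086, 3042, 2906 and 2213 TPM, so it was not lower than in eggs in Ctrl embryos and entered the set through its DomKD value. CG18766 and CG31886 also entered through DomKD embryos, since their log2 fold changes of Ctrl embryos against eggs were -0.64 and -0.81. U2 is encoded by several near-identical copies, so the assignment of its reads is uncertain. CG18766 was at 1.73, 0.483, 2.01 and 1.02 TPM in DomKD embryos, 16.7, 11.5 and 17.6 TPM in Ctrl embryos and, in eggs, 25.5, 23.2, 25.6 and 24.7 TPM. Spindly was at 2.07, 2.03, 1.84 and 2.37 TPM, 12.5, 10.02 and 12.9 TPM and 58.9, 55.99, 59.1 and 66.5 TPM in the same order. In all 5 the embryo groups were apart, and edgeR adjusted p-values were at most 0.00074.

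The genes of the set with the highest values against Ctrl embryos were CG30159, CG6180, Aldh, Pex11ab and CG6770. Each was still at least 4-fold lower in DomKD embryos than in eggs. The aldehyde dehydrogenase gene Aldh was at 32.00, 39.1, 32.7 and 28.5 TPM in DomKD embryos, 9.38, 12.1 and 9.25 TPM in Ctrl embryos and, in eggs, 421, 428, 443 and 437 TPM (edgeR log2 fold change 1.74 ± 0.16 (SE) between embryo groups, adjusted p = 0.0002). The peroxisomal gene Pex11ab was at 14.3, 15.8, 15.03 and 15.8 TPM against 4.79, 5.23 and 4.81 TPM, from 174, 170.00, 167 and 163 TPM in eggs (adjusted p = 0.00022 by edgeR). CG6180 averaged 59.7 ± 18.7 TPM and 12.3 ± 3.06 TPM, and CG30159, whose exons overlap Tsp42Ea on the same strand, 17.3 ± 6.3 TPM and 2.49 ± 1.14 TPM. The Hedgehog co-receptor gene ihog belonged to the opposite side, at 4.36, 6.61, 5.2 and 7.98 TPM in DomKD embryos, 17.7, 18.02 and 14.9 TPM in Ctrl embryos and, in eggs, 44.2, 43.8, 45.3 and 51.00 TPM (edgeR log2 fold change -1.43 ± 0.18 (SE), adjusted p = 0.00065).

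The same partial table was used for maternal genes of the promoter classes. At least 4-fold lower in DomKD embryos than in eggs were 7 of 113 maternal Zelda-dependent genes, 222 of 1183 with H2A.Z and 28 of 259 without H2A.Z, beside 1215 of 6317 over all maternal genes. At least 4-fold higher were 6 of the Zelda-dependent genes and none of the other 2 classes. The classes were not tested against each other.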

How the data were processed

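RNA-seq was done on total RNA of stage 5 embryos and unfertilized eggs (TruSeq Stranded Total RNA, per the labels). The authors mapped reads to dm6 with the mRNA-seq workflow of snakePipes after trimming, with Ensembl release 96, and deposited a table of featureCounts counts per gene with exon lengths; neither the strand setting nor the rule for multi-mapping reads is given in the sources used here. One column matched no sample (1 in all) and was used nowhere. Deposited counts were converted to TPM with the deposited lengths. Names and positions came from Ensembl release 115 (17626 of 17753 genes named). Exons of genes that overlap were listed, since reads in them may be shared.

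Counts were tested with edgeR 4.0.16 in R 4.3.3 (quasi-likelihood test, trimmed-mean scaling, genes with 10 counts or more on average, Benjamini-Hochberg adjustment over all genes tested, threshold 0.05), on the libraries of the 2 groups compared. The study used DESeq2, which was an alternative here (1.42.0). Scripts were tested on simulated counts with 200 changed genes. The biological coefficient of variation was 8.14% for DomKD embryos against eggs and 11.6% for DomKD against Ctrl embryos. No pair of replicates agreed within sampling noise (4.70 or more chi-square units per gene). Values with an error are means ± SD, and fold changes are ± SE. A fold against eggs with no read used a floor of 3 counts per egg library, which covers counting error only.

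The members, gene lists and tests were chosen with earlier results of these data known. Named genes were dom and the qPCR genes ihog, gbb and ac; the 3 highest members of each zygotic list and members over 5 TPM in Ctrl embryos but not higher in DomKD embryos than in eggs; the 3 lowest members of each maternal list and those called at least 2-fold higher; the 10 largest increases and decreases among called genes that averaged 50 counts or more and whose groups were apart; and the 5 lowest and 5 highest zygote-only and cleared maternal genes against Ctrl embryos under the same conditions. One gene that the rule names is not reported here. DomKD and Ctrl embryos were both set against the same eggs, so no overlap or correlation of those comparisons is given. Alternatives were other scalings, filters, class limits, DESeq2, a fit of all 11 libraries, protein-coding genes only, a replicate block and leaving out each library. Promoter sequences were not used here.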

Additional observations from a re-analysis of the deposited data

Results flagged for a closer look

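Each group of 4 libraries was searched for a library far from the others, over 171 groups of named genes, and 2 were found where chance gives about 8.6 (1 in 20). The level of tll in DomKD replicate 4 was 132 TPM, below the 165 to 171 TPM of the other 3 DomKD libraries. The level of RpL36A in DomKD replicate 3 was 2873 TPM, below the 3050.2 to 3080.0 TPM of the other 3.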

How the results depend on the processing

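Of 2325 values of 140 genes and alternatives, 2291 kept their direction and side of the threshold, 20 lost and 7 gained the call and 7 changed sign. With ribosomal protein scaling, 1117 genes were higher and 4917 lower in DomKD embryos than in eggs, 1556 were higher in Ctrl embryos than in eggs, and log2 fold changes of DomKD embryos against eggs became -0.055 for fog, -0.55 for Ing3, -0.36 for DMAP1, -0.53 for RpL36A, -0.46 for RpL38 and -0.41 for RpL34a. The same scaling gave 37 zygote-only genes higher and 18 cleared maternal genes higher in DomKD than in Ctrl embryos. Against eggs it left 318 egg-absent genes turned on, and 1641 maternal genes were called at least 4-fold lower. This scaling assumes that ribosomal protein RNA keeps its share. With a mean of at least 100 counts, which tests fewer genes, 207 egg-absent genes were turned on, and 42 cleared maternal genes were higher and 209 lower than in Ctrl embryos. A 2-fold limit counted 1930 maternal genes as cleared. One fit of all 11 libraries called 108 cleared maternal genes higher than in Ctrl embryos, and scaling by library size alone 42. Among genes called between DomKD and Ctrl embryos, the share called higher in DomKD embryos was 40.7%. Scaling by library size moved this share to 28.0%, and ribosomal protein scaling moved it to 9.61%. Leaving out 1 library at a time gave 40 to 79 zygote-only genes higher and 23 to 59 lower, and 27 to 80 cleared maternal genes higher and 307 to 415 lower; turned-on genes stayed at 312 to 319 and cleared maternal genes at 1176 to 1231. The log2 fold change of Mef2 between embryo groups, -0.18 with all libraries, ran from -0.33 without Ctrl replicate 3 to 0.075 without Ctrl replicate 2.

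The numbers of the replicates marked no pairs. DomKD embryo and egg libraries of equal number deviated from their group means with correlations of -0.14, -0.07, -0.04 and -0.03. For DomKD and Ctrl embryo libraries of equal number, replicates 2 to 4, the correlations were 0.07, -0.06 and -0.41. For those of unequal number they ran from -0.29 (DomKD replicate 2 with Ctrl replicate 4) to 0.49 (DomKD replicate 4 with Ctrl replicate 2). With a replicate block, 3469 genes were higher and 3048 lower in DomKD embryos than in eggs, 318 turned on and 1218 cleared, and against Ctrl embryos 29 zygote-only genes were higher and 42 lower and 38 cleared maternal genes higher and 301 lower. Genes near 5 TPM and those with few reads in embryos are limited by depth, and 24 short non-coding or pseudogene entries of the zygote-only set were not tested.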
